A study of Vitis vinifera with 4 samples.

Results

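The binding events described here are those to which the peak caller attached a k-mer, a short word of DNA letters that it learned from the same list of events. Of the 8558 NAC61 binding events in the deposited list, 1879 (22.0%) could be matched to the part of the study's gene assignment table that was used here, which runs in alphabetical order of gene annotation and breaks off early in the alphabet. Among these listed events, 751 had a filled k-mer entry and 1128 had none, a share of 40.0% with a k-mer (95% Wilson interval 37.8 to 42.2%). The events were chosen by their k-mer entry, which the peak caller derived from the same reads as their signal and p-value, so that their signals and p-values are given as a description without a test. The genes are a slice of the genome taken by name and not at random, and the listed events without a k-mer from the same slice serve as the comparison.

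The events come from DNA affinity purification and sequencing (DAP-seq), in which a tagged transcription factor made in vitro pulls fragments out of a library of purified genomic DNA. The 2 NAC61 samples held HALO-NAC61 protein and the 2 control samples held GST-HALO, the same tag without the transcription factor. Both proteins were translated in rabbit reticulocyte lysate and offered the same material, genomic DNA of young leaves pooled from fruiting cuttings of grapevine (Vitis vinifera) cv. 'Syrah'. Naked DNA of this kind carries no nucleosomes and no partner proteins, and the number of cuttings in the pool is not given in the sources used here. The replicates were called together into 1 list with no values per replicate, so there is no spread between replicates to set beside any value, and all comparisons are between events within that list.

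NAC proteins are a family of transcription factors found only in plants. They bind DNA as dimers through their conserved NAC domain, and the core they recognise is CGT followed by G or A, which reads CACG or TACG on the other strand. Members of the family act in senescence, fruit ripening and the responses to drought, and NAC61 itself was studied as a regulator of the late stages of grape berry ripening. The peak caller GEM looks for short words that recur close to the centres of events, and uses them in turn to place the events, so an event can be called with or without such a word.

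The k-mers fell into a few families, of which the most frequent words of each are shown because the results below are given by family. They are written 5′ to 3′ in lower case, and capitals mark CGT with the letter after it. The letter n stands for any base.
TG group, most frequent: tgCGTGt
TG group, a longer word: gttgCGTG
TG group, the longest form of that word: gttgCGTGtaa
TG group, with A after the core: attgCGTA
GA group: tgaCGTGt
GG group: tggCGTGt
AG group: tagCGTGt
GN group: tgnCGTGt
no CGT: attgcttgt
In all there were 58 different words of 7 to 11 letters, of which 57 held CGT. These 57 words accounted for 702 of the 751 events (93.5%). CGT was followed by G at 605 events (80.6%) and by A at 68 events (9.05%). The strand and the position of the word within an event were not analysed here, because no sequence of the genome build of the files was used.

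The word family was set by the letters just before the core. The TG group, with TG before CGT, was the widest, with 39 words at 412 events (54.9%). GA before CGT was found in 7 words at 119 events, GG in 5 words at 81 events and AG in 4 words at 49 events. The GN group, 2 words with an ambiguous base in front of the core, covered 41 events. Use was spread over many words, since the 10 most frequent covered 355 events (47.3%) and 3 words were attached to a single event each. Only attgcttgt lacked the core. It differed from attgCGTGt, a word of the TG group found at 13 events, by 1 letter, G6T, counted from 1 at the 5′ end of the word with the letter of attgCGTGt first.

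The events with a k-mer carried no more reads than those without. The signal of an event, the number of HALO-NAC61 reads assigned to it, had a median of 86 reads at events with a k-mer (95% interval 82 to 89) and 91 reads at events without (89 to 94), a ratio of medians of 0.945. The middle part of the events lay between 68 and 112 reads with a k-mer and between 72 and 113 reads without. At the upper end the order turned, as the 95th percentile was 175 reads with a k-mer and 166 reads without. The whole ranges ran from 37 to 929.3 reads with a k-mer and from 37 to 1423.4 reads without, and thus overlapped almost completely.

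In its medians, the evidence against the control followed the same order. The median −log10 p-value against the control was 6.99 (6.38 to 7.56) with a k-mer and 7.84 (7.53 to 8.38) without. Divided by the reads of the event, the median was 0.083 per read (0.0801 to 0.0868) with a k-mer and 0.0893 per read (0.0867 to 0.0914) without. At the upper end the order turned here too. The upper quartile of the −log10 p-value was 13.2 with a k-mer and 12.6 without. The 95th percentile per read was 0.194 with a k-mer and 0.187 without. These differences in median were no longer resolved without the weakest events. When events under a −log10 q-value of 5 were left out, the median signal was 103 reads with a k-mer and 102 reads without. The difference was 1 read (-3.77 to 5.21). The −log10 p-value per read was then 0.111 with a k-mer and 0.106 without, a difference of 0.00455 (-0.00168 to 0.00995). Both intervals allow either order.

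**Figure D1:**
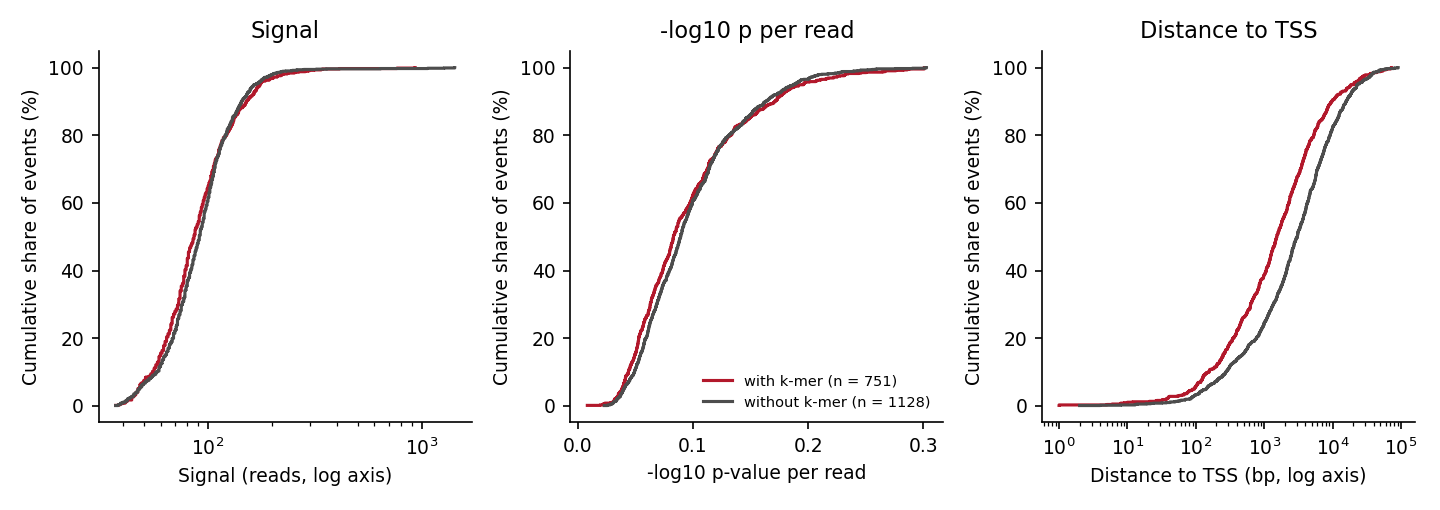
Cumulative share of events (y axis, %) by signal in reads (log axis), by −log10 p-value per read and by distance between summit and TSS in bp (log axis), for 751 events with a k-mer and 1128 listed events without. The curves run close together for signal and −log10 p-value per read, whereas the distance curve of events with a k-mer lies to the left, with a median of 1535 bp with a k-mer and 3047 bp without.

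Along the ranking by signal, the share of events with a k-mer was lowest in the middle and not at an end. When the listed events were ranked and divided into 10 bins of about equal size, 44.1% had a k-mer in the lowest bin, 32.8% (26.8 to 39.6%) in bin 7 and 45.2% (38.3 to 52.4%) in the highest bin. Ranked by −log10 p-value, the shares were 48.9% in the lowest bin, 30.7% in bin 6 and 46.3% in bin 9. A higher signal was thus not accompanied by a steadily higher or lower share. The division into bins was chosen after values were seen.

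**Figure D2:**
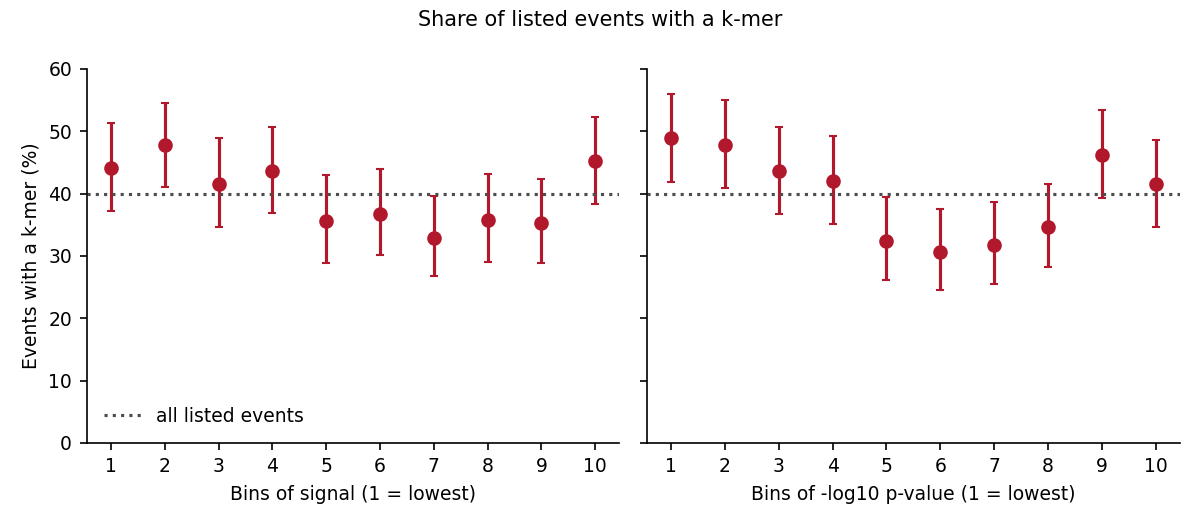
Share of listed events with a k-mer (y axis, %) in 10 bins of signal (left) and of −log10 p-value (right), from the lowest to the highest, with 95% Wilson intervals and a dotted line at the overall 40.0%. In both panels the lowest shares are in the middle bins, 32.8% for signal and 30.7% for −log10 p-value.

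The strongest contrast between both sets was their position. The summit of an event with a k-mer lay a median of 1535 bp (1340 to 1778) from the transcription start site, or TSS, of its gene, against 3047 bp for an event without (2699 to 3366), a ratio of 0.504. The lower quartile was 468.5 bp with a k-mer and 1039 bp without. Distance was not used to choose the events.

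Most of the contrast arose close to the start of the gene and far away from it. Summits up to 1 kb upstream of the TSS made up 158 of the 751 events with a k-mer (21.0%, 18.3 to 24.1%) and 128 of the 1128 without (11.3%, 9.63 to 13.3%). From 1 to 3 kb upstream the shares were close, 13.3% with a k-mer and 11.5% without. More than 5 kb upstream lay 10.1% (8.16 to 12.5%) with a k-mer and 15.4% (13.4 to 17.7%) without. Counted on either side of the TSS, 20.8% of events with a k-mer and 35.8% of those without were more than 5 kb away. Seen the other way, 55.2% of all listed events up to 1 kb upstream had a k-mer, and 27.9% of those more than 5 kb from a TSS.

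In windows of 250 bp, the window just upstream of the TSS held the most events of both sets, 74 with a k-mer (9.85%) and 54 without (4.79%). Just downstream the sets were level, with 37 events (4.93%) with a k-mer and 48 (4.26%) without in the first 250 bp. The next 250 bp held 49 events (6.52%) with a k-mer and 42 (3.72%) without. Within 500 bp of the TSS on both sides were 26.2% of the events with a k-mer and 15.5% of those without.

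**Figure D3:**
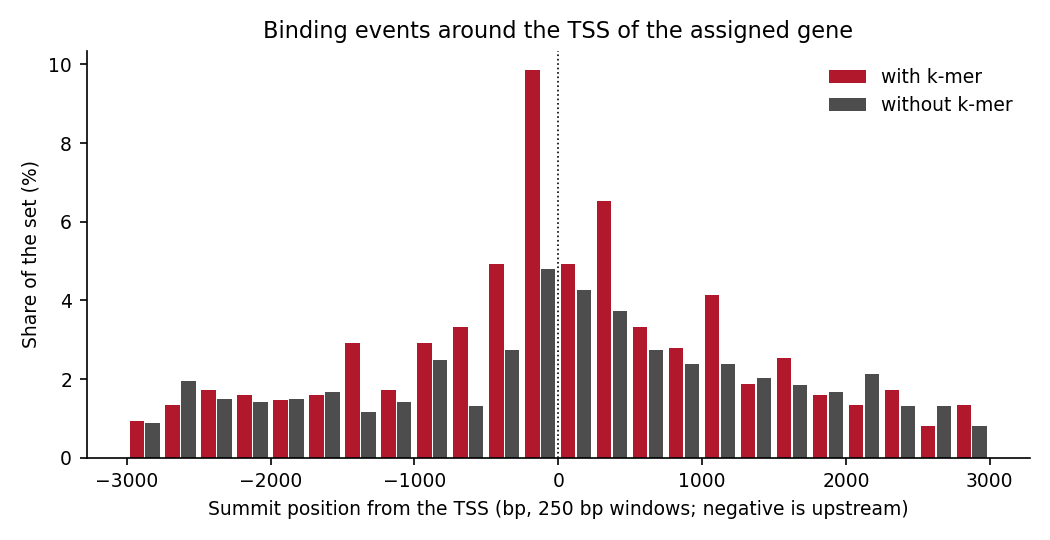
Share of each set (y axis, % of all its events) whose summit falls in windows of 250 bp from 3 kb upstream to 3 kb downstream of the TSS (x axis, bp, negative is upstream), with a k-mer in red and without in grey. The window just upstream of the TSS holds 9.85% of the events with a k-mer and 4.79% of those without.

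The median distance was shorter with a k-mer upstream, inside and downstream of genes, though the intervals overlapped downstream. Upstream, the median distance to the TSS was 1459 bp at 378 events with a k-mer (1222 to 1803) and 2763 bp at 500 events without (2503 to 3273). Inside genes, it was 1031 bp at 265 events with a k-mer (816 to 1200) and 1971 bp at 431 events without (1626 to 2439). The genes that held these events differed in length too, with a median of 4164 bp with a k-mer and 8173 bp without, and as a share of gene length the summits lay 28.5% of the way into the gene with a k-mer and 34.1% without. The part of gene length in the distances inside genes was not tested. Downstream, the median distance to the TSS was 5157.5 bp at 108 events with a k-mer (4135 to 6015) and 6155 bp at 197 events without (5148 to 7734). Counted from the gene end, these summits lay a median of 2032 bp past it with a k-mer and 2569 bp without.

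The promoter was taken to reach from 3 kb before the TSS to 100 bp past it. It held 270 of the events with a k-mer (36.0%, 32.6 to 39.4%) and also 270 of those without (23.9%, 21.5 to 26.5%). Inside the promoter the median signal was 86 reads (81 to 91) with a k-mer and 84.5 reads (79 to 88) without. Outside it, the medians were 86 reads (81 to 91) with a k-mer and 94 reads (91 to 96) without. The −log10 p-value per read was lower with a k-mer in both places, at 0.0823 with a k-mer and 0.0876 without inside the promoter, and 0.0837 with a k-mer and 0.0893 without outside it. Whether the signal gap differed between both places was not tested.

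Divided into 4 bins of signal, the promoter share of events with a k-mer ran between 33.9% and 38.3%, and that of events without between 18.5% and 32.6%. In the lowest bin, with 37 to 71 reads, the shares were 34.9% (28.8 to 41.5%) with a k-mer and 32.6% (27.2 to 38.4%) without, and their intervals overlapped. In the second bin they were 38.3% with a k-mer and 26.5% without, and in the third 33.9% with a k-mer and 18.5% without. In the highest bin, from 112.8 reads, 36.6% of events with a k-mer (29.97 to 43.8%) and 19.2% of events without (15.0 to 24.1%) lay in a promoter. The median distance of events with a k-mer shortened over the bins, being 2362, 1745, 1415 and 1206 bp. Without a k-mer it was 3106, 3114, 2908 and 3001 bp, with no such order. In the 10 finer bins used above, the promoter share with a k-mer varied more, being 29.7% in bin 3 (31.7% without), 43.9% in bin 9 (19.8% without) and 25.9% in the highest bin (17.5% without). The share was higher with a k-mer in each of these bins other than bin 3. The 4 bins were also chosen after values were seen.

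**Figure D4:**
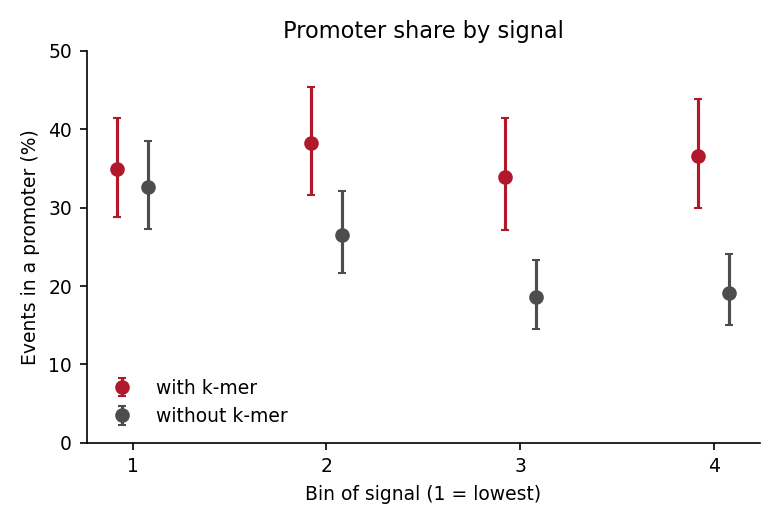
Share of events in a promoter (y axis, %) in 4 bins of signal (x axis, 1 is the lowest), with a k-mer in red and without in grey, with 95% Wilson intervals. The shares are 34.9% with a k-mer and 32.6% without in the lowest bin, and 36.6% with a k-mer and 19.2% without in the highest bin.

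The position contrast did not come from a few chromosomes. On 18 of 19 chromosomes the promoter share was higher with a k-mer than without, the exception being chromosome 9 with 23.8% with a k-mer and 25% without. On 18 of 19 the median distance was shorter, chromosome 12 being the exception with 2761 bp with a k-mer and 2324 bp without. Signal was less even, as its median was lower with a k-mer on 12 of the 19. The share of listed events with a k-mer ran between 31.1% on chromosome 10 and 45.8% on chromosome 6, and the interval of every chromosome held the overall share.

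Families of words differed little in signal, with medians of 85.5 reads in the TG group, 85.1 reads in the GA group, 86 reads in the GG group, 87.4 reads in the GN group and 95.4 reads (85 to 102) in the AG group. The promoter share was 36.9% (32.4 to 41.7%) in the TG group, 41.2% in the GA group, 29.6% in the GG group, 32.7% in the AG group and 46.3% (32.1 to 61.3%) in the GN group, with wide intervals that overlapped.

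The 49 events with attgcttgt, the word without the core, had the lowest medians of these word families in signal and in −log10 p-value per read. Their median signal was 76 reads (68 to 86), and their −log10 p-value per read was 0.0656 (0.0596 to 0.0849). Both intervals overlapped those of the TG group, 81 to 91 reads and 0.0796 to 0.0874 per read. They lay below those of events without a k-mer, 89 to 94 reads and 0.0867 to 0.0914 per read. The median distance of the events with attgcttgt to the TSS was 3226 bp (1877 to 4542), against medians between 1335 and 1634 bp in the groups with CGT. That interval lay above the interval of the TG group (1181 to 1778), but overlapped those of the GA, GG, AG and GN groups. Only 10 of the events with attgcttgt (20.4%, 11.5 to 33.6%) lay in a promoter. The distance and promoter share of these events were thus close to those of events without any k-mer, whereas their signal and −log10 p-value per read were lower.

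Median signal was higher in words that ran on past the core, though the intervals of these groups overlapped widely. Words that ended at CGT had a median signal of 74 reads (62 to 95, 29 events), those with CGTA 80.7 reads (75 to 93, 68 events) and those that ended at CGTG 80.9 reads (77.1 to 90, 199 events). With a t after CGTG the median was 90 reads (86 to 95, 323 events), with tt 97.6 reads (80 to 110, 61 events) and with taa 100 reads (65 to 159, 22 events). By length, words of 7, 8 and 9 letters had medians of 82, 85 and 85 reads, words of 10 letters 94 reads, and the 21 events with a word of 11 letters 126 reads (107 to 160.9). The word gattgCGTGtt, at 4 events, had signals from 113 to 285 reads, a median of 187.5 reads and a median −log10 p-value of 48.1. Other long words were low, such as atggCGTGtaa, with 46 to 77 reads at 3 events, and attgCGTGtt, with a median of 72.6 reads at 3 events. Trailing letters and length overlap as descriptions of a word, and both groupings were made after values were seen.

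Another event lay within 500 bp of 50 events with a k-mer (6.66%) and of 76 events without (6.74%). Within 200 bp the counts were 11 with a k-mer (1.46%, 0.820 to 2.60%) and 7 without (0.621%, 0.301 to 1.28%), with intervals that overlapped. Listed events formed 63 pairs within 500 bp of each other, of which 12 had a k-mer at both events, 27 at 1 event and 24 at neither. In the 27 mixed pairs, the event with the k-mer had the higher signal in 15. A single pair carried the same word at both events, attgcttgt, 98 bp apart on chromosome 9, with 71.8 and 59.2 reads. Both events were assigned to a gene for a C2-HC type zinc finger (VIT_09s0096g00720) and lay more than 5 kb upstream of it. Their intervals of 201 bp overlap, and the reads are those that the peak caller assigned to each.

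Events with a k-mer were assigned to 675 of the 1477 listed genes, and 169 of these also had an event without one. These 169 genes held 194 events with a k-mer and 199 without, so some had more than 1 event of a kind. Within these 169 genes, the event with a k-mer lay nearer to the TSS in 95 (56.2%, 48.7 to 63.5%) and had the higher signal in 77 (45.6%, 38.2 to 53.1%). Both intervals held an even split, so the position contrast seen over all events was not resolved between events of the same gene. Most genes had a single event with a k-mer (608), while 60 had 2, 6 had 3 and 1 had 5.

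The strongest promoter events of each word family are given next, with their positions in the PN40024 12X.v2 assembly. In the TG group these were at a gene for the auxin-responsive protein SAUR29 (VIT_16s0098g01150; chr16:22916517-22916717), of a family of small proteins whose transcripts rise quickly with auxin. Its event with gttgCGTGt lay 1269 bp upstream and had 293 reads and a −log10 p-value of 52.1, which ranked 83 by signal among all 8558 events. The same word marked an event 2003 bp upstream of a bHLH transcription factor gene (VIT_08s0058g00960; chr8:10303094-10303294), with 225 reads and a −log10 p-value of 24.8.

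In the GA group, atgaCGTGtt was attached to an event 554 bp upstream of Diacylglycerol kinase 1 (VIT_17s0000g06970; chr17:7808979-7809179), whose enzyme turns the lipid messenger diacylglycerol into phosphatidic acid. It had 265 reads and a −log10 p-value of 45.1. The gene of the leucine zipper transcription factor bZIP40 (VIT_15s0046g01440) had 3 events with a k-mer. The event with tgaCGTGt, 2350 bp upstream, had 211 reads, that with gattgCGTG, 1468 bp upstream, had 93.1 reads, and that with atagCGTGt, 1535 bp inside the gene, had 106 reads. The highest of the 3 was the one farthest from the TSS.

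In the GG group, tggCGTGt marked the 2 leading events. At CYP86B1 (VIT_01s0011g02060; chr1:1747415-1747615), whose Arabidopsis counterpart hydroxylates long fatty acids for suberin, the event lay 576 bp upstream with 210 reads. At a gene annotated as the response regulator ARR24 (VIT_19s0014g04420), of the cytokinin signalling chain, it lay 1505 bp upstream with 139 reads. In the AG group, tagCGTGt marked the event of the aspartic protease gene VvAP32 (VIT_13s0019g01980; chr13:3395168-3395368), 80 bp upstream with 174 reads and a −log10 p-value of 42.5. The same word lay at ABI4 or VvDREB18 (VIT_13s0067g01400), an AP2 type factor that acts in abscisic acid signalling in Arabidopsis, 1469 bp upstream with 115 reads.

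The ambiguous word tgnCGTGt was attached to an event 846 bp upstream of a chalcone synthase gene (CHS1, VIT_14s0068g00920; chr14:24672514-24672714), the enzyme that opens the flavonoid pathway. This event had 164 reads and a −log10 p-value of 21.2. It also marked an event of 156 reads 395 bp upstream of a Cgi67 serine protease gene (VIT_14s0006g02620). For attgcttgt, the leading promoter events were at a gene for the type A response regulator ARR3 (VIT_01s0026g00940), which dampens cytokinin signalling in Arabidopsis, with 175 reads at 1131 bp upstream, and at an ankyrin repeat gene (VIT_13s0106g00030), with 139.8 reads at 658 bp upstream. Their −log10 p-values were 15.0 and 8.09, below those of leading events in families with CGT that had like signals, such as VvAP32. Other promoter events with CGT came close to these values. An armadillo gene (VIT_00s0225g00100) had 151.9 reads and 9.56 with gattgCGTG, and a gene for a calmodulin-binding protein (VIT_07s0005g03830) had 185 reads and 16.9 with tgCGTGt.

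By −log10 p-value per read the leading promoter events were of moderate signal. A gene annotated CTV.12 (VIT_13s0047g01240) led with 0.286 per read at an event of 86 reads with tgnCGTGt, 141 bp upstream. The gene of Arginine-tRNA-protein transferase 1 (VIT_03s0097g00060), which marks proteins for degradation by adding arginine, followed with 0.276 per read at 81.9 reads with tttgCGTGt, 208 bp upstream. VvALDH3H1 (VIT_18s0001g02440), an aldehyde dehydrogenase that clears reactive aldehydes, had 0.267 per read at 94 reads with tgaCGTGtaa, 2187 bp upstream. A CYP93A1 gene (VIT_08s0007g07740) had 0.251 per read at 118 reads with gcttgCGTG, and a class IV chitinase gene (VIT_05s0094g00340), whose enzyme cleaves the chitin of fungal walls, had 0.246 per read at 83.8 reads with atgaCGTGt, 341 bp upstream.

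The 270 promoter events with a k-mer lay at 254 genes, 16 of which had more than 1. The chitinase gene VIT_05s0094g00340 had another 811 bp upstream, with tgnCGTGt and 48.2 reads. Its neighbour VIT_05s0094g00330, annotated as the same class of chitinase, had 3 events with a k-mer inside the gene, of 54, 67 and 87 reads. The gene of the dehydrin VvDHN4 (VIT_03s0038g04400), of a family of hydrophilic proteins that gather in drying tissue, had 80.9 reads with atagCGTG at 249 bp upstream and 108 reads with tggCGTGt at 1705 bp upstream. VvDREB27 (VIT_18s0001g05250) had 106 and 97 reads at 2861 and 2211 bp upstream, with tggCGTGt and tgnCGTGt. At bZIP03 (VIT_02s0025g01020) the nearer event, 124 bp upstream with tggCGTGt, had 112.8 reads and the farther, 2566 bp upstream with atgaCGTGtt, 80 reads. At these genes the words of both events were different.

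The closest of these promoter pairs lay at a D111/G-patch gene (VIT_17s0000g08950), 104 bp apart. Its summit with attgCGTGt had 167.2 reads and a −log10 p-value of 38.7, and that with gttgCGTGt had 50.8 reads and 2.3. Their intervals of 201 bp overlap, and the signals are the reads that the peak caller assigned to each.

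The gene with 5 events, chosen for mention after its count was seen, was annotated as the brassinosteroid receptor BRI1 (VIT_07s0031g01850). All 5 of its listed events had a k-mer. On the upstream side lay tgaCGTGt with 107 reads at 7330 bp, atgaCGTG with 77.1 reads at 2102 bp and gnttgCGT with 41.9 reads at 1802 bp from the TSS. Inside the gene lay tagCGTGt with 91 reads, and past its end atgaCGTG with 45 reads. They spread from chr7:24295223 to chr7:24309831.

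The highest signals of all events with a k-mer lay outside promoters. On the sequence not anchored to a chromosome, an event with cttgCGTA had 929.3 reads and a −log10 p-value of 93.9, and was assigned to a gene for Cytochrome c oxidase subunit 2 (VIT_00s0438g00010). On the same unanchored sequence, an event with atgaCGTG at a gene for an RNA helicase (VIT_00s0441g00010) had 764.6 reads but a −log10 p-value of 14.6, which is 0.0191 per read. On chromosome 8, an event with ggttgCGTGt had 411 reads and a −log10 p-value of 92.6, at 14047 bp upstream of a BLH1 homeobox gene (VIT_08s0105g00230). The lowest signal, 37 reads, belonged to an event with gttgCGTG at a gene for Cycloartenol synthase (VIT_09s0054g01550), an enzyme of sterol synthesis.

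By gene annotation, the share of listed events with a k-mer ran between 16.1% and 71.4% in 19 groups of genes. Many groups were small, and the interval of 18 of them held the overall 40.0%. Among hormone groups, 33 of 75 events at auxin genes (44%), 18 of 36 at abscisic acid or dehydration genes (50%), 5 of 7 at cytokinin genes (71.4%) and 7 of 11 at brassinosteroid genes (63.6%) had a k-mer, with 5 of the last 7 from the BRI1 gene. Among transcription factors the counts were 20 of 46 for bHLH (43.5%) and 13 of 27 for bZIP genes (48.1%). Calcium or calmodulin genes had a k-mer at 36 of 84 events (42.9%) and ABC transporter genes at 21 of 65 (32.3%). Within these last 2 groups, the promoter events with a k-mer of the highest signal were those of a calmodulin-binding protein (VIT_07s0005g03830), with 185 reads, and of the ABC transporter TAP3 (VIT_16s0100g00350), with 152 reads at 137 bp upstream.

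**Figure D5:**
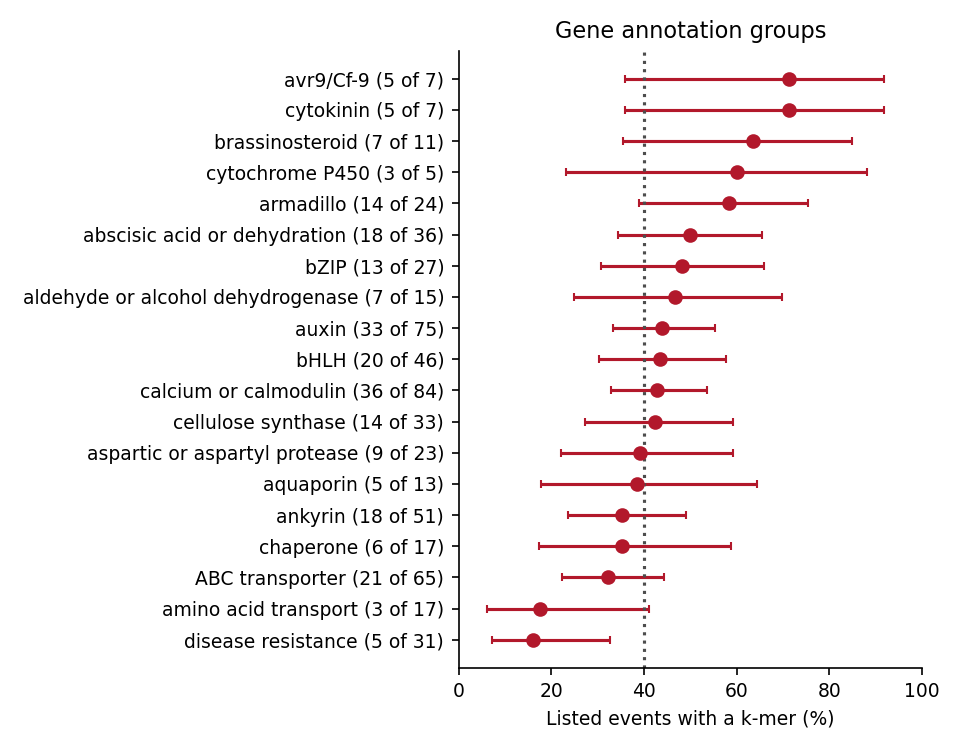
Share of listed events with a k-mer (x axis, %) in 19 groups of genes by annotation, with 95% Wilson intervals, the counts in brackets and a dotted line at the overall 40.0%. The disease resistance group, at 16.1%, is the one whose interval lies wholly below the line.

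The exception was the disease resistance group, mostly genes for receptors of the NBS-LRR type that detect pathogens. A k-mer was present at 5 of its 31 events (16.1%, 7.09 to 32.6%), and 1 of these 5 lay in a promoter, at RPP8 (VIT_13s0067g00800) with gttgCGTG, 66 reads and a −log10 p-value of 3.44. Signals were low with or without a word in this group, with medians of 65 reads with a k-mer and 67.5 reads without. Amino acid transport genes were nearly as low, with a k-mer at 3 of 17 events (17.6%, 6.19 to 41.0%). At genes for Avr9/Cf-9 rapidly elicited proteins, which respond to a fungal elicitor in tobacco, 5 of 7 events had a k-mer (71.4%, 35.9 to 91.8%). The intervals of both these groups held the overall share. Since 19 groups were set against the same overall share, no weight is laid on the disease resistance group.

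Of the genes that the study discusses, 14 had listed events, and 8 of them had a k-mer at a promoter event. Over all 1477 listed genes the number was 254, but many of those had no listed promoter event, whereas each of the 14 had one. The study discusses its genes in part for binding in their promoters, so that both counts are not alike in kind. Of all 540 listed promoter events, 270 (50%) had a k-mer, and the count among the 14 genes was near that share. At 4 of the 8 genes with a k-mer, the same gene also had an event without a k-mer, so that the word can be placed. At the aldo/keto reductase gene AKR (VIT_05s0062g00980) the word cttgCGTGt belonged to the event of 47.4 reads, and the event of 136.6 reads had none. Both summits lay 150 bp apart, so their intervals of 201 bp overlap, and the reads are those that the peak caller assigned to each. At MYB163 (VIT_01s0011g03730) tagCGTGt lay at an event of 101 reads, against 110 reads at the event without. At MYB164 (VIT_17s0000g03560) gttgCGTGt lay at 149.8 reads, against 153 reads without, and at an Avr9/Cf-9 gene (VIT_01s0011g06140) gtttgCGTGt lay at 91 reads, against 151 reads without. The event with the word had fewer reads in these 4 genes, whereas over the 169 genes with both kinds of event it had fewer in 92 and more in 77. The calmodulin-like gene CML101 (VIT_01s0010g02930) had tgCGTGt at 227 bp upstream with 83 reads, the asparagine synthetase gene tggCGTGt, the tonoplast aquaporin DELTA-TIP gttgCGTG, and AHP1, an AT-hook protein, the word without the core, attgcttgt. The listed events of DHN1b, AOX1A, ALDH2B8, NIP5, AHP4 and an auxin efflux carrier gene had no k-mer.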

How the data were processed

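DAP-seq reads of 2 HALO-NAC61 and 2 control samples were trimmed (fastp 0.21.0) and aligned (Bowtie2 2.0) according to the submitters' processing notes, to the PN40024 12X.v2 assembly. The authors filtered reads by mapping quality and called events with GEM in its replicate mode on nuclear chromosomes. The signal deposited by the authors is the number of reads assigned to an event. The deposited score was not used. The −log10 p-value and −log10 q-value against the control are those of the authors' peak caller. Depth of the control at single events was not analysed here.

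Event names, k-mers, gene models and annotations came from the study's gene assignment table, and no fold or read value of that table was used. Distances were computed from the deposited summits to the TSS, along the strand of the gene. None of the listed gene IDs was found in the RefSeq gene table (0 of 1477), so gene names are those of the assignment table, and no sequence of the genome was read. The k-mers were grouped by their letters.

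Shares have 95% Wilson intervals and medians have order statistic intervals at the same level. Both treat events as independent and cover counting error only. No test was made, because the k-mers come from the same calls as the signal, because events are not replicates, and because the table breaks off. The functions were tested on simulated data. Named genes were the 2 strongest promoter events of each k-mer group, the 5 promoter events highest in −log10 p-value per read, genes with several promoter events with a k-mer, the strongest promoter event of each annotation group, genes that the study discusses, and the 3 highest signals. A few of the genes found by this rule are not shown. The weakest event, the 5 events of BRI1, the chitinase neighbour and the close pair with 1 word were added after values were seen. The events, k-mer groups, gene lists and this rule were chosen with earlier results of these data known. Alternatives were other minimum q-values, other sets of k-mers or events, and other definitions of distance, promoter and per-read value. Values were computed in Python 3.11.15 with pandas 2.3.3, scipy 1.17.1 and numpy 2.4.6, and plotted with matplotlib 3.10.9.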

Additional observations from a re-analysis of the deposited data

How the results depend on the processing

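Of 39 alternative values, 34 stayed within the 95% interval of the value as reported. The median distance was shorter with a k-mer in every alternative run, with a difference (with a k-mer minus without) between -1573.5 and -1350.12 bp, and the promoter share higher by 10.2 to 14.2 percentage points. This included distance from the start of the interval, a promoter of 1 kb and 1 event per gene. The signal did not hold. The median with a k-mer minus that without was -5 reads (-10 to -1.39), and -3.05 reads (-6.45 to 1.23) at a minimum −log10 q-value of 3. At a minimum of 5 the order was reversed, with 1 read (-3.77 to 5.21), an interval that allows either order. The −log10 p-value per read with a k-mer minus that without was -0.00627, and was 0 at a minimum of 3 (0.0933 in both sets). At a minimum of 5 it was reversed to 0.00455 (-0.00168 to 0.00995), which again allows either order. As a mean over 4 bins of signal the difference per read was -0.00192. The median per read was 0.0670 with a k-mer and 0.0778 without in the lowest bin, and 0.120 with a k-mer and 0.117 without in the highest. The share with a k-mer was 36.8% at a minimum of 5 and 37.1% when words with an ambiguous base were counted as none. The range of median signal over word families was 19.4 reads (4.97 to 29.8), from 76 reads for attgcttgt to 95.4 reads in the AG group. Among the families with CGT the lowest median was 85.1 reads. By the letter after CGT, with attgcttgt left out, the range was 14 reads (-7.21 to 26.6). These ranges cover unlike sets of events and are not to be set against each other. The alternatives without attgcttgt, and the mean over 4 bins of signal for distance and promoter share, were chosen after seeing the data. No paired analysis was possible because the deposited list holds no values per replicate, and for the same reason no replicate could be left out. The depth behind a value is the reads of its event, at least 37 here, and the spread between replicates cannot be told apart from that between events.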

Other observations

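Functional categories of the gene assignment table were looked at after values were seen. Events at genes of the response to stress had a k-mer in 19 of 42 cases (45.2%, 31.2 to 60.1%), those of the response to hormone in 69 of 153 (45.1%, 37.4 to 53.0%) and those of the generation of energy in 9 of 33 (27.3%, 15.1 to 44.2%). All 3 intervals held the 40.0% over all listed events. Promoter shares were 68.4% (13 of 19) with a k-mer and 26.1% (6 of 23) without in the response to stress, beside 36.0% with a k-mer and 23.9% without over all listed events. The 68.4% was the highest promoter share with a k-mer of all categories, picked out after values were seen. It rests on 19 events, and no weight is laid on it. Next came cellular homeostasis, with 51.6% with a k-mer and 21.8% without. The order was the other way in the generation of energy, with 33.3% with a k-mer and 45.8% without, in developmental processes, with 36.4% with a k-mer and 41.2% without, and by a narrow margin in carbohydrate metabolism, with 30% with a k-mer and 30.6% without. The stress genes included VvDHN2 (VIT_18s0001g00360), a dehydrin gene with an event of 131 reads and gttgCGTG at 468 bp upstream. An allergen gene (VIT_05s0020g04050) had 2 promoter events, of 87.7 reads with gttgCGTGt and 103.3 reads with ggttgCGTA.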
